A study of Mus musculus with 12 samples.

Results

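The comparison described here sets the change that Abhd5 silencing made in a macrophage-like line against the change found in tumour cells that had been primed by those macrophages. All 12 samples of the series entered it, 12 of 12, in 4 groups of 3. The first pair of groups was RAW264.7, a mouse macrophage-like line, transfected with the vector PLKO or with ABHD5 shRNA. The second pair was CT-26, a mouse colon carcinoma line, primed by control RAW264.7 cells or by ABHD5-silenced RAW264.7 cells. Unprimed CT-26 cells were not analysed here. How the priming was carried out, whether any macrophages remained among the extracted CT-26 cells and whether a group's 3 samples were cultured separately is not given in the labels, so p-values measure only the spread between these samples. Fewer cells of a type and less RNA per cell cannot be told apart in such bulk samples.

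For each gene the change in RAW264.7 cells (knockdown minus control) had the change in CT-26 cells (primed by knockdown minus primed by control) subtracted from it. This value is called the difference below. A difference above 0 means that the gene went up more, or down less, in the macrophages than in the primed tumour cells. Levels are log2 of the background-corrected signal minus the array's 75th percentile, so a change of 1 is 2-fold. Of 34787 gene names on the array, 26887 were tested, having in some group a probe that the scanner software called well above background on each of the 3 arrays, and 19731 of these were well above background on all 12 arrays. Unless stated otherwise, the counts below are of those 19731 genes, because for them both changes were measured on both sides. The limma test was called at an adjusted p under 0.05.

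Abhd5 encodes a lipid droplet protein that activates the triglyceride lipase Pnpla2 and so helps to start the breakdown of stored fat. Macrophages that change their lipid handling also change the cytokines and chemokines they secrete, and tumour cells exposed to such factors answer through their own receptors. A gene can therefore move in the secreting cell, in the exposed cell, in both, or in opposite directions in one and the other.

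Spots well above background made up 56.5% to 72.7% on the arrays of control RAW264.7 cells, 69% to 73% on those of knockdown cells, 68.3% to 77.3% on those of control-primed CT-26 cells and 59.3% to 67% on those of knockdown-primed CT-26 cells. The array's 75th percentile of signal ran from 1679 to 2712, from 3016 to 3577, from 3366 to 3718 and from 1807 to 3029 in the same order of groups. The dimmer group was thus the control in RAW264.7 cells and the knockdown side in CT-26 cells, with no overlap between groups in either line. Replicates of a group correlated at 0.978 to 0.997 over genes. RAW264.7 control replicates 1 and 2 shared slide 1, and control replicate 3 lay with the 3 knockdown arrays on slide 2. All 6 CT-26 arrays were on slide 3, so a level difference between the lines cannot be told apart from one between slides. All 18 macrophage markers were detected in both RAW264.7 groups, and their summed linear level was 422.84 to 515.01 in controls and 414.46 to 461.43 in knockdown cells. In CT-26 cells 14 and 13 of the 18 were detected, with sums of 61.07 to 66.02 in control-primed and 64.85 to 86.04 in knockdown-primed samples, and Adgre1, Spi1, Laptm5 and Ctss were detected in neither CT-26 group. Of 16 epithelial markers 11 and 10 were detected in the CT-26 groups, with Epcam and Cdh1 among those that were not, while 8 and 7 of 10 fibroblast markers were. In RAW264.7 cells 7 and 12 of the epithelial and 3 and 5 of the fibroblast markers were detected. T cell markers (8 listed), B cell markers (7), neutrophil markers (8) and endothelial markers (6) were detected in 5, 4, 5 and 2 cases in control-primed and in 4, 3, 4 and 2 cases in knockdown-primed CT-26 cells; in RAW264.7 cells they numbered 4, 4, 3 and 2 in controls and 4, 4, 5 and 3 after knockdown. The summed neutrophil marker level was 1.82 to 3.65 in control and 8.46 to 10.39 in knockdown RAW264.7 cells. Cebpe, at a mean of 1.29 and 3.16, and Camp, at -3.97 and -1.74, were higher after knockdown. Elane (-4.25 and -4.73), Mpo (-4.16 and -4.39), Ngp (-4.66 and -4.94) and Ly6g (-6.98 and -7.31) were not. Ltf and Retnlg were detected on no array.

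The targeted gene separated the RAW264.7 groups. Abhd5 lay at 1.38, 1.93 and 1.52 in control and at 0.25, 0.23 and 0.39 in knockdown RAW264.7 cells. Its CT-26 levels were 0.98, 0.82 and 0.83 after priming by control and 0.89, 0.83 and 1.12 after priming by knockdown macrophages. The RAW264.7 groups did not overlap and the CT-26 groups did. The change was -1.32 ± 0.20 (SE) in RAW264.7 cells (adjusted p = 0.00344) and 0.07 ± 0.15 in CT-26 cells (adjusted p = 0.776), and the difference of -1.39 ± 0.24 passed the test (adjusted p = 0.00254). The RAW264.7 change was -1.23 with slide as a block and missed the threshold (adjusted p = 0.0554), while the difference of -1.30 passed (adjusted p = 0.023). The other 2 Abhd5 probes gave differences of -0.81 and -0.48, with the CT-26 change at -0.48 and -0.30.

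The response of the macrophages and that of the tumour cells they primed differed for many genes, and the differences ran mostly in 1 direction. The difference passed the test for 8455 of 26887 genes (31.4%), and for 6854 of the 19731 genes well above background on all arrays (34.7%). It was above 0 for 1175 genes (5.96%) and below 0 for 5679 genes (28.8%). At a size of at least 2-fold, 882 called differences were above 0 and 3096 below. In the separate comparisons 1111 genes rose (5.63%) and 3139 fell (15.9%) in RAW264.7 cells, and 664 rose (3.37%) and 403 fell (2.04%) in CT-26 cells. Together these made 4250 and 1067 genes, and single arrays moved both: the RAW264.7 count was 1807 without control replicate 1 and 1730, 1148 and 975 without knockdown replicates 1, 2 and 3, and the CT-26 count was 109 and 40 without control-primed replicates 2 and 3 and 2277, 290 and 111 without knockdown-primed replicates 1, 2 and 3. With slide as a block the RAW264.7 count was 547.

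The median gene moved too: by -0.329 in RAW264.7 cells and 0.153 in CT-26 cells, which gives a median difference of -0.448. That median depended on the scaling and was -0.274 with median centring, -0.187 with quantile normalisation and -0.484 with normexp background correction. The share of called differences below 0 was 82.9% and became 73.7%, 70.2% and 85.3% with these, and 68.8% with slide as a block. With slide as a block, where control replicate 3 alone stood against the knockdown arrays of its slide, 509 differences above 0 and 1122 below 0 were called. Leaving out 1 array moved the count below 0 by more than 1.5 times in 4 cases, to 3423 without RAW264.7 knockdown replicate 3, 3734 without control-primed CT-26 replicate 2, 3223 without control-primed replicate 3 and 3387 without knockdown-primed replicate 3. The count above 0 did so once, falling to 773 without control-primed replicate 3. How far array brightness, which moved with the groups in both lines, contributed to the excess below 0 was not tested.

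**Figure D1:**
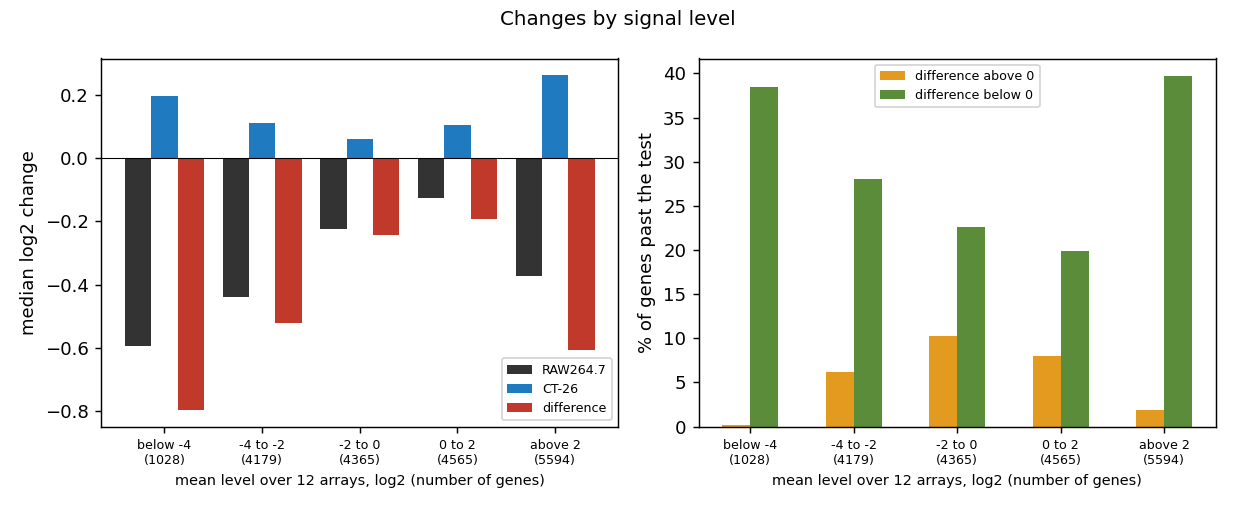
Median log2 change and share of genes past the test of the difference, by the gene's mean level over the 12 arrays. Differences below 0 made up 38.5% of genes at levels below -4 and 39.7% above 2, against 19.9% between 0 and 2, while differences above 0 peaked at 10.2% between -2 and 0.

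Differences below 0 were most frequent at the ends of the signal range, as the plot by signal level shows. Of 5594 genes with a level above 2, 39.7% had a called difference below 0 and 1.91% above. Of 4565 genes between 0 and 2, these shares were 19.9% and 7.95%. The median difference was -0.607 in the first of these and -0.194 in the second. Among the 6854 genes with a called difference, 3068 had passed in the RAW264.7 comparison only, 525 in the CT-26 comparison only, 188 in both and 3073 in neither.

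The largest differences came from genes that moved in the macrophages and stayed near their level in the tumour cells. Il1b, the precursor of the inflammatory cytokine interleukin-1 beta, had the largest difference above 0. Its probe lies at chr2:129190347-129190406 (mm9). It lay at -3.95, -3.41 and -3.33 in control and at 2.77, 3.26 and 3.68 in knockdown RAW264.7 cells. On the CT-26 arrays it read -3.20, -3.24 and -2.77 after priming by control and -3.17, -2.73 and -2.38 after priming by knockdown cells. The RAW264.7 groups stood far apart, and the CT-26 groups overlapped, all of them far below the knockdown macrophages. The change was 6.80 ± 0.28 (111-fold) in RAW264.7 cells and 0.31 ± 0.23 in CT-26 cells, and the difference was 6.49 ± 0.39 (95% interval 5.64 to 7.33, adjusted p = 1.3e-06).

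Gpnmb, a lysosomal and cell surface glycoprotein of lipid-laden macrophages, followed with a difference of 5.29 ± 0.29 (adjusted p = 6.85e-07). Its levels were -3.67, -3.20 and -3.10 in control and 1.94, 1.60 and 1.29 in knockdown RAW264.7 cells, against 2.06, 2.05 and 1.80 and 1.47, 1.78 and 1.57 in the CT-26 groups. After silencing, the macrophage arrays overlapped those of CT-26 cells under either priming, which lay on another slide. Pdpn (podoplanin, a membrane glycoprotein) rose in the same way, from a mean of -2.51 ± 0.33 (SD, n = 3) to 2.90 ± 0.10 in RAW264.7 cells while CT-26 cells lay at 2.95 ± 0.11 and 3.24 ± 0.08, for a difference of 5.12. The remaining 3 of the 6 largest differences above 0 were Chchd10, a mitochondrial intermembrane space protein, at 5.24, Csta3, a cystatin family member, at 5.07, and Rbpms, an RNA-binding protein, at 4.24. All 6 changed in RAW264.7 cells, and none of them passed the test in CT-26 cells, where the changes lay between -0.50 and 0.31.

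At the other end stood Pxdn, a matrix peroxidase that cross-links collagen IV, at chr12:30702457-30702516 (mm9). It lay at 0.51, 0.81 and 0.34 in control and at -4.0, -4.51 and -4.38 in knockdown RAW264.7 cells. The CT-26 levels were 2.55, 2.23 and 2.21 and then 2.59, 2.81 and 2.54. Only the RAW264.7 groups were apart, and the difference was -5.17 ± 0.27 (95% interval -5.75 to -4.58, adjusted p = 5.06e-07), while a second, dimmer Pxdn probe gave -1.96. Hspb7, a small heat shock protein, had a difference of -5.10, Gdpd3, a lysophospholipase D, of -4.61, Hoxc6, a homeobox factor, of -4.60 and Igf2bp1, an RNA-binding protein of oncofetal type, of -4.5. These 5 genes changed by -4.20 to -5.33 in RAW264.7 cells and did not pass the test in CT-26 cells. Gprc5c, an orphan G protein-coupled receptor, was built differently: its change was -2.32 in RAW264.7 cells (adjusted p = 0.0245) and had a CT-26 change of 1.71 (adjusted p = 0.0588), for a difference of -4.03 (adjusted p = 0.00725).

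The Gprc5c arrays were uneven. It lay at -1.12, -0.48 and -3.06 in control RAW264.7 cells, where replicate 3 is the array on the knockdown slide, and at -3.92, -3.77 and -3.91 in knockdown cells. In tumour cells it lay at -4.06, -4.41 and -4.47 and at -3.93, -1.98 and -1.91. With slide as a block its difference was -2.52 and no longer passed (adjusted p = 0.0581), and a second probe, dim in all but 1 group, gave 0.30.

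**Figure D2:**
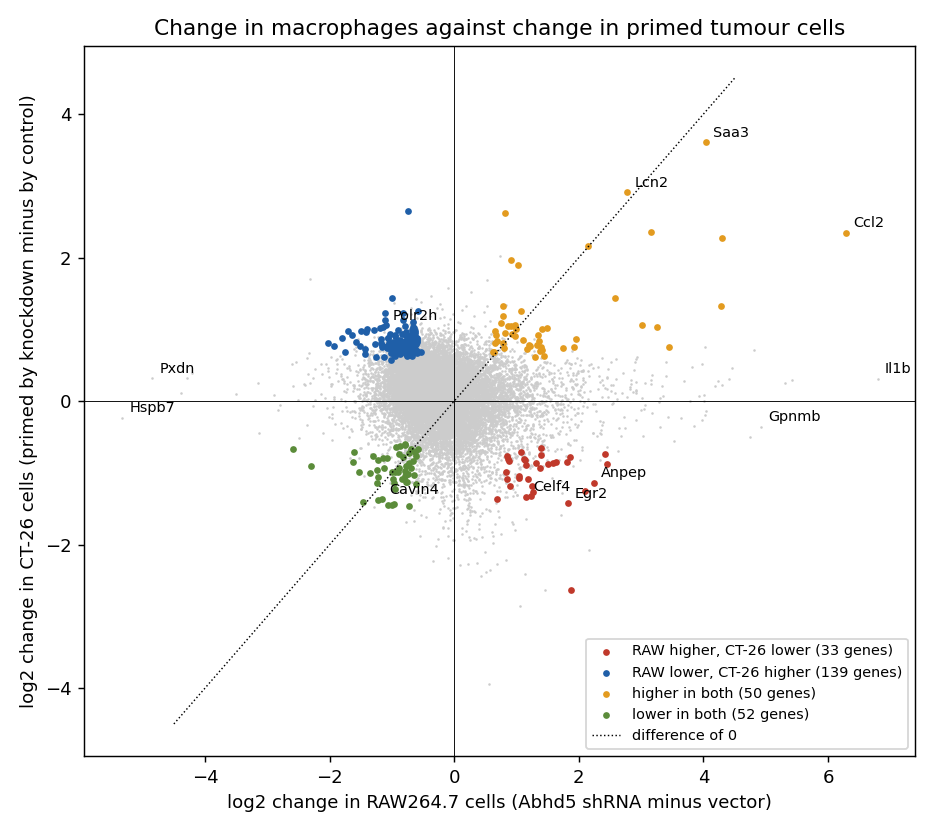
Log2 change in CT-26 cells (vertical) against log2 change in RAW264.7 cells (horizontal) for 19731 genes well above background on all 12 arrays, grey; colours mark genes that passed in both comparisons. The dotted line is a difference of 0: Lcn2 lies close to it, Il1b and Pxdn far to either side, and the 33 and 139 genes of opposite direction fall in the lower right and upper left quadrants.

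Few genes changed in both lines. Of the genes called in the RAW264.7 comparison, 6.45% were also called in the CT-26 comparison, and of the CT-26 calls 25.7% were also RAW264.7 calls, 274 genes in all. Across the 19731 genes the 2 changes correlated at r = -0.162, a description across genes, which are not replicates, and whose values within a line share the scaling of its arrays. The 274 genes fell into 4 classes, as the scatter of both changes shows. In 33 genes (0.167%) expression rose in RAW264.7 and fell in CT-26 cells, in 139 (0.704%) it fell in RAW264.7 and rose in CT-26 cells, in 50 (0.253%) it rose in both and in 52 (0.264%) it fell in both. The classes were picked by passing both tests, so the directions within them are a description. The difference was called for all 33 and all 139 genes of opposite direction, which their choice on the same arrays makes nearly certain, and for 13 of 50 that rose in both and 3 of 52 that fell in both. All 274 had groups without overlap in both lines, which passing both tests makes likely by itself.

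The opposite classes differed in size of change and in signal level. The genes higher in RAW264.7 and lower in CT-26 cells had median changes of 1.242 and -0.888 and a median level of -1.675, and 11 of the 33 moved at least 2-fold in both lines. Those lower in RAW264.7 and higher in CT-26 cells had median changes of -0.83 and 0.792 and a median level of 1.92, and 6 of the 139 moved at least 2-fold in both. The median level of all 19731 genes was 0.138. The second class thus held bright genes, where called differences below 0 were frequent in general: it took in 1.2% of genes with a level above 2.

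Both counts leaned on single arrays. Without 1 array they became 54 (higher in RAW264.7, lower in CT-26) without RAW264.7 control replicate 3, 17 and 19 without RAW264.7 knockdown replicates 2 and 3, 7 and 3 without control-primed CT-26 replicates 2 and 3, and 68, 16 and 5 without knockdown-primed CT-26 replicates 1, 2 and 3. The reverse class became 68 without RAW264.7 control replicate 1, 62, 19 and 20 without RAW264.7 knockdown replicates 1, 2 and 3, 4 and 1 without control-primed replicates 2 and 3, and 384, 26 and 5 without knockdown-primed replicates 1, 2 and 3. With slide as a block 11 of the 33 and 6 of the 139 stayed in their class, and 19 and 38 did so in all 3 other scalings.

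Among the genes higher in RAW264.7 and lower in CT-26 cells, Egr2 ranked first of the named genes by the smaller of its changes. Egr2 is an immediate early zinc finger transcription factor that is also induced during macrophage activation. Its probe lies at chr10:67004798-67004857 (mm9). It lay at -2.88, -3.30 and -1.67 in control and at -0.94, -0.93 and -0.51 in knockdown RAW264.7 cells. CT-26 arrays gave -2.31, -2.14 and -2.01 after priming by control and -3.65, -3.59 and -3.46 after priming by knockdown cells. The groups were apart in both lines, but control replicate 3, on the knockdown slide, was the RAW264.7 control nearest to the knockdown arrays. The RAW264.7 change was 1.82 ± 0.38 (adjusted p = 0.0154), the CT-26 change -1.42 ± 0.15 (adjusted p = 0.00397) and the difference 3.24 ± 0.46 (95% interval 2.24 to 4.24, adjusted p = 0.000782). With slide as a block the RAW264.7 change was 0.87 and did not pass (adjusted p = 0.18), while the difference of 2.29 did (adjusted p = 0.00118).

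Anpep, the membrane aminopeptidase also called CD13, had the largest difference of the 10 genes named for this class. It lay at -2.46, -2.91 and -2.46 in control and at -0.36, -0.40 and -0.36 in knockdown RAW264.7 cells. In CT-26 cells the levels were -2.01, -1.65 and -1.57 and then -2.80, -2.71 and -3.12. The order of the lines thus turned over: control-primed CT-26 cells had more Anpep signal than control macrophages, and knockdown-primed CT-26 cells had less than knockdown macrophages. The lines lay on different slides, so their order in level cannot be told apart from a slide difference. The changes were 2.24 ± 0.19 and -1.14 ± 0.18, and the difference of 3.37 ± 0.26 (adjusted p = 9.36e-06) was 3.22 with slide as a block, where both changes still passed.

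Bhlhe40, a helix-loop-helix repressor tied to the circadian clock and to stress, moved by nearly the same size in each line. It lay at -0.16, -0.32 and -0.09 in control and at 1.04, 1.03 and 1.07 in knockdown RAW264.7 cells. The tumour cell arrays gave 3.5, 4.0 and 3.80 and then 2.59, 2.39 and 2.33. The macrophage change was 1.24 ± 0.17 and the tumour cell change -1.33 ± 0.18, with no overlap in either, and the difference of 2.57 ± 0.23 (adjusted p = 2.72e-05) was 2.47 with slide as a block. Esyt3, an extended synaptotagmin that tethers membranes, lay at -3.09, -3.44 and -3.06 and at -0.83, -1.18 and -1.29 in RAW264.7 cells and at -2.52, -1.98 and -1.96 and at -3.23, -3.08 and -3.94 in CT-26 cells. Its difference was 3.35 ± 0.35 (adjusted p = 9.13e-05), with a second, dim probe at 1.44.

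The other 6 genes of the 10 named for this class had differences between 2.07 and 2.53. Myo10, an unconventional myosin of filopodia, changed by 1.26 and -1.27. Celf4, an RNA-binding splicing regulator, changed by 1.15 and -1.33, although its second probe, dim in 3 groups, gave a CT-26 change of 0.11. Cblb, a ubiquitin ligase that restrains immune receptor signalling, changed by 1.03 and -1.04. Its second probe, well above background in only 2 groups, gave 1.42 and -0.45. Prkab2, a regulatory subunit of the energy sensor AMPK, changed by 1.18 and -1.09. Ptpre, a receptor-type tyrosine phosphatase, changed by 1.38 and -0.93, although a second probe well above background in all groups gave 0.16 and -0.55, a difference of 0.72. Gk5, a glycerol kinase family member, changed by 0.89 and -1.18, and its second probe, well above background in only 2 groups, by 0.85 and -0.32. Of these 6, Celf4 alone kept both calls with slide as a block.

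Several further members were picked after their values were seen, for their known roles. Tlr4, the receptor for bacterial lipopolysaccharide, rose by 2.42 in RAW264.7 cells and had a CT-26 change of -0.74, and it kept both calls with slide as a block but in none of the 3 other scalings. The p53 inhibitor Mdm4 changed by 1.81 and -0.85, and Hipk1, a nuclear kinase, by 1.58 and -0.86. The ascorbate transporter Slc23a2 changed by 1.63 and -0.85, the endosomal adaptor Appl2 by 0.85 and -0.77 and the survival kinase Pim1 by 0.68 and -1.37.

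**Figure D3:**
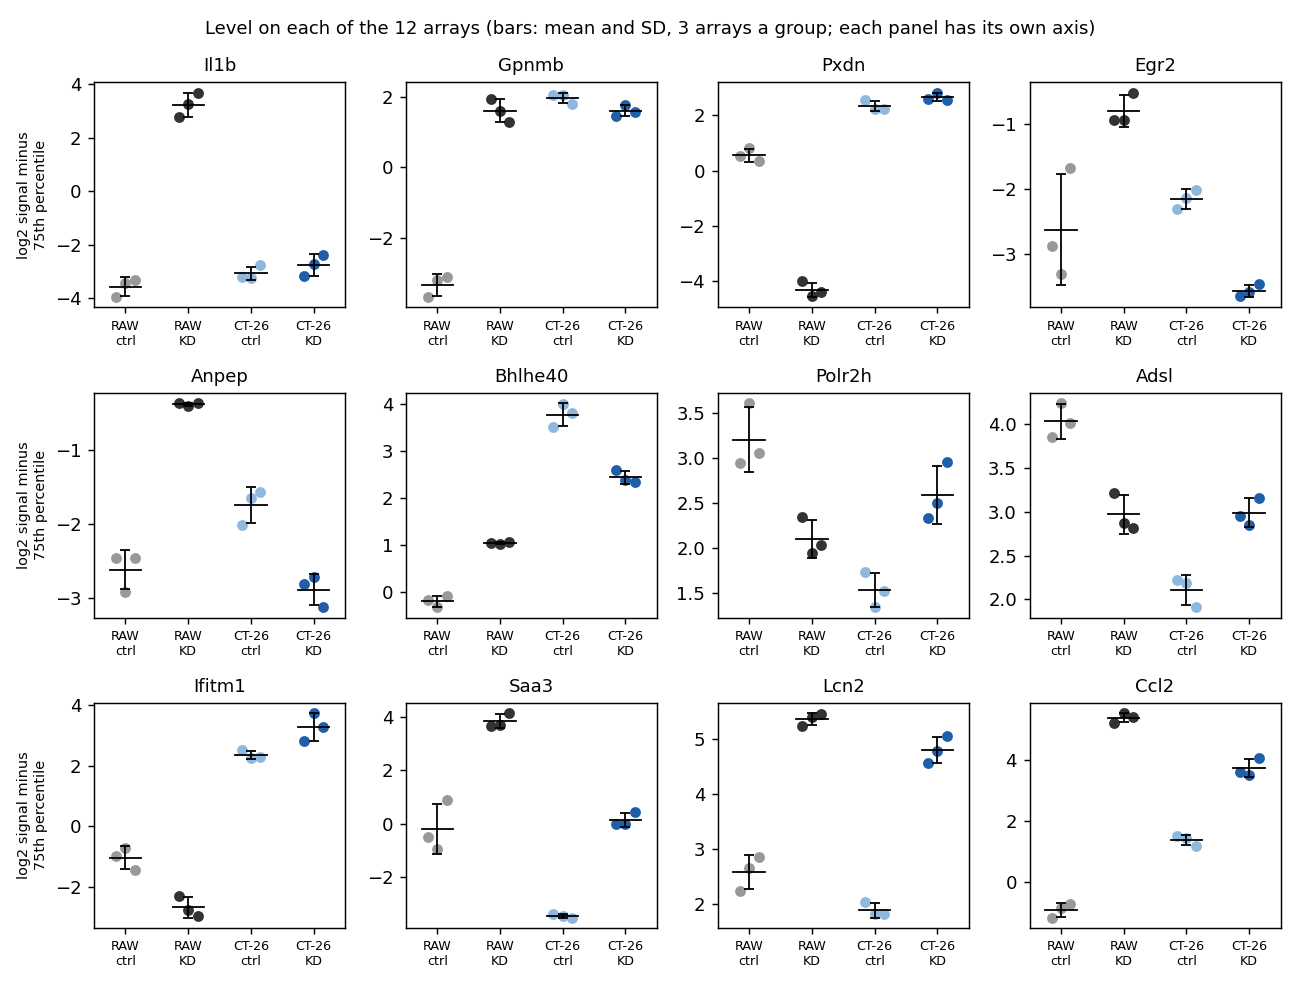
Level of 12 genes on each of the 12 arrays; points are arrays, bars the mean and SD of the 3 arrays of a group, and each panel has its own axis. Egr2, Anpep and Bhlhe40 go up in RAW264.7 and down in CT-26 cells, Polr2h, Adsl and Ifitm1 do the reverse, and Saa3, Lcn2 and Ccl2 go up in both.

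Among the genes lower in RAW264.7 and higher in CT-26 cells, Polr2h ranked first of the named genes by the smaller of its 2 changes, after 2 features without a gene name. It encodes a subunit shared by the nuclear RNA polymerases. Its probe lies at chr16:20722258-20722317 (mm9). It lay at 2.94, 3.61 and 3.05 in control and at 2.34, 1.94 and 2.03 in knockdown RAW264.7 cells. In the primed CT-26 cells it was at 1.73, 1.34 and 1.52 and at 2.33, 2.50 and 2.95. No groups within a line overlapped. The changes were -1.10 ± 0.23 (adjusted p = 0.0147) and 1.06 ± 0.20 (adjusted p = 0.0241), the difference was -2.16 ± 0.32 (95% interval -2.85 to -1.47, adjusted p = 0.00098), and a second probe gave -1.97.

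Adsl, the purine synthesis enzyme adenylosuccinate lyase, lay at 3.85, 4.24 and 4.01 in control and at 3.21, 2.87 and 2.81 in knockdown RAW264.7 cells. The CT-26 arrays read 2.22, 2.19 and 1.91 and then 2.95, 2.85 and 3.16. Knockdown macrophages and the tumour cells they primed thus reached a shared range of signal, from opposite sides, though on arrays of different slides. The difference was -1.95 ± 0.25 (adjusted p = 0.000386). With slide as a block, where control replicate 3 alone stood against the knockdown arrays, the genes named by rule for this class lost their RAW264.7 calls. For Adsl and Polr2h the RAW264.7 change was then -1.05 and -0.95, and the difference -1.93 and -2.01.

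Ifitm1, an interferon-induced membrane protein that hinders virus entry, lay at -0.97, -0.71 and -1.44 in control and at -2.30, -2.77 and -2.97 in knockdown RAW264.7 cells. Tumour cell levels were 2.52, 2.26 and 2.30 and then 2.82, 3.74 and 3.28. Its signal was higher in tumour cells throughout, and the gap between the lines widened: the difference was -2.56 ± 0.37 (adjusted p = 0.000917), and -2.10 by a second probe. Nmral1, an NADPH-sensing protein, had a difference of -2.17, S100a5, a calcium-binding protein, of -2.21 and Cd79b, a B cell receptor component, of -2.48, the last at levels of -1.08 or lower on all 12 arrays. The RAW264.7 call of Cd79b was lost with median centring (adjusted p = 0.0849) and quantile normalisation (adjusted p = 0.0634). Ifitm1 lost its CT-26 call with quantile normalisation (adjusted p = 0.0958). Trub1, a pseudouridine synthase acting on transfer RNA, had a difference of -1.97. Tsacc, M1ap and Spef1l, had differences of -1.88, -1.85 and -1.88, and a second Spef1l probe gave -1.11 with a CT-26 change of 0.13.

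Other members of this class were named after their values were seen. Gart, a purine synthesis enzyme, changed by -0.94 and 0.73, and Dhodh, a pyrimidine synthesis enzyme, by -1.08 and 0.74. Both kept their calls in all 3 other scalings and lost the RAW264.7 call with slide as a block. H2ax, the histone variant that marks DNA breaks, changed by -1.93 and 0.77, and Hpdl, a mitochondrial dioxygenase, by -1.57 and 0.82. H2ax and Hpdl kept both calls with slide as a block and in all 3 other scalings; of the 139 genes 3 did so, the remaining one being a feature named only by its position.

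**Figure D4:**
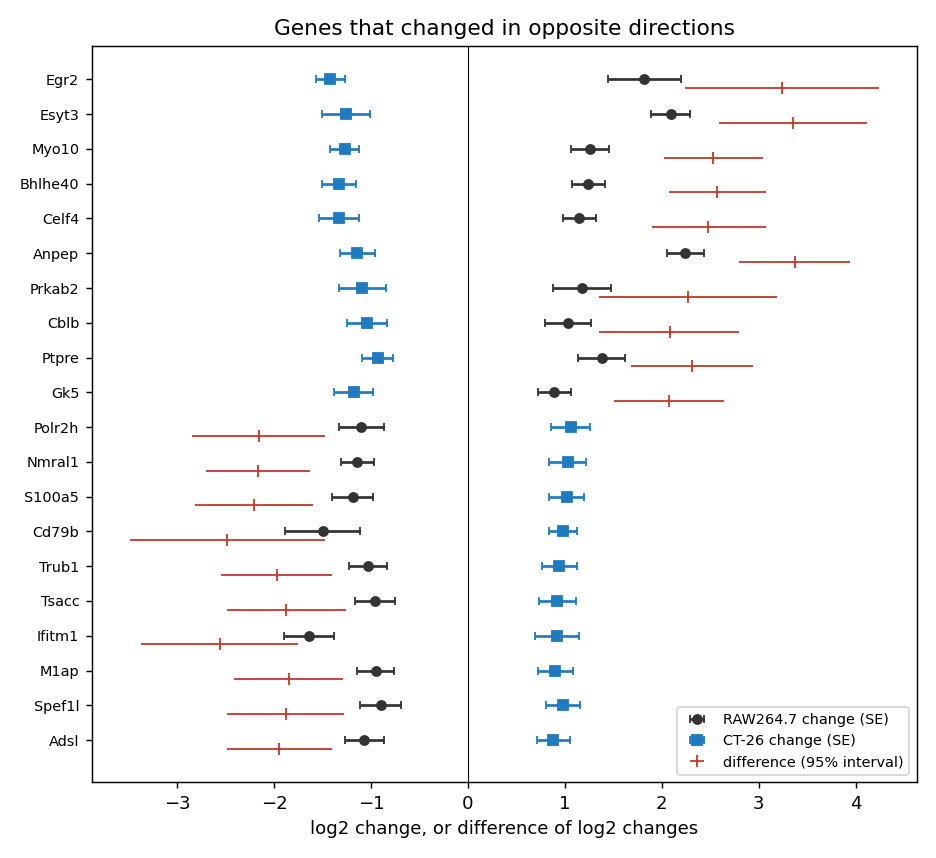
Log2 change in RAW264.7 cells (circles) and CT-26 cells (squares) with SE, and the difference with its 95% interval (red), for the 20 genes named by rule among those of opposite direction. The 10 genes at the top have differences of 2.07 to 3.37 and the 10 below of -2.56 to -1.85. No interval reaches 0, which their choice on the same arrays made nearly certain.

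Promoter sequences are shown for members that moved in opposite directions and for genes discussed next that rose together, since shared or unshared letters upstream can be read directly. They are the 250 bases before the first listed start in RefSeq (GRCm38.p6), 5′ to 3′ on the gene's strand, with motif matches in capitals. The motifs searched on both strands were NF-kB and the CArG box by name, AP-1 spelled TGANTCA, the cyclic AMP element (CRE) spelled TGACGTCA, the ETS motif spelled CCGGAAG, the E-box spelled CACGTG, the C/EBP motif spelled TTNNGNAA and the TATA box spelled TATAAA; no match of one motif shared a base with a match of another in the promoters shown.
Egr2: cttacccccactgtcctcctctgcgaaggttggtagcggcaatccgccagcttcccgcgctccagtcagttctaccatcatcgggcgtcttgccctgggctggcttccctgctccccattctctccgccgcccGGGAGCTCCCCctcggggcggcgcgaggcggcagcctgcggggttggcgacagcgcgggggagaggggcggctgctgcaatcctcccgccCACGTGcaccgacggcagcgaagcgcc
Anpep: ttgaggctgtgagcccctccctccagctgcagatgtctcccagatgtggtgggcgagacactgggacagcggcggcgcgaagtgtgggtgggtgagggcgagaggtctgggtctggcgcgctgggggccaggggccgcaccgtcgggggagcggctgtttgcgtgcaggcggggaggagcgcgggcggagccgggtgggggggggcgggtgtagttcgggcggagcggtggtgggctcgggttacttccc
Polr2h: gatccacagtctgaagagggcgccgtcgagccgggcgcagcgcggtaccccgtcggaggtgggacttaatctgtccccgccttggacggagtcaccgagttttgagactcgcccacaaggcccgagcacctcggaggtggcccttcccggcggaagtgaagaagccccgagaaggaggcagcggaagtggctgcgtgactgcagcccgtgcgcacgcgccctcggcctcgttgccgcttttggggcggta
Adsl: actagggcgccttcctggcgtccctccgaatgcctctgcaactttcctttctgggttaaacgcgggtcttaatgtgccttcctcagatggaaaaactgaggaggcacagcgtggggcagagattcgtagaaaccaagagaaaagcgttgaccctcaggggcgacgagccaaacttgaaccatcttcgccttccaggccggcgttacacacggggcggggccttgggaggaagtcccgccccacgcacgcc
Saa3: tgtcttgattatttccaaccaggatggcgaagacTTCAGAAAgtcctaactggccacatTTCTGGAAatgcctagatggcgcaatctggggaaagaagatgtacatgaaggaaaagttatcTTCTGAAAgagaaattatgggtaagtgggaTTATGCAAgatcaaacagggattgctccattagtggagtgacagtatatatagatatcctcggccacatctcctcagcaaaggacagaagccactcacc
Lcn2: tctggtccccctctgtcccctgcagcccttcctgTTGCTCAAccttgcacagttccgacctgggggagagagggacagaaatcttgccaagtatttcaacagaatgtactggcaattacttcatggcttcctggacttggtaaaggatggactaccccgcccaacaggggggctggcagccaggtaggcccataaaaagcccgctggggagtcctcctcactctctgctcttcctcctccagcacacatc
Il1b: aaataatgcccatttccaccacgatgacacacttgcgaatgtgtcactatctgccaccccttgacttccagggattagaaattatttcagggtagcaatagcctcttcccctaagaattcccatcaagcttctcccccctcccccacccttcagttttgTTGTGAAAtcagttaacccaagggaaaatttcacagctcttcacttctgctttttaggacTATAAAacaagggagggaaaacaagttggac

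These lie at chr10:67535249-67535498 (plus strand) for Egr2, chr7:79848211-79848460 (minus) for Anpep, chr16:20717576-20717825 (plus) for Polr2h, chr15:80948240-80948489 (plus) for Adsl, chr7:46715677-46715926 (minus) for Saa3, chr2:32387740-32387989 (minus) for Lcn2 and chr2:129371140-129371389 (minus) for Il1b. Egr2 held 2 NF-kB matches that overlap each other, 117 and 116 bases before the start, and an E-box 27 bases before it. Saa3 held 4 C/EBP matches, 216, 191, 129 and 99 bases before the start, Lcn2 held 1 at 216, and Il1b held 1 at 91 besides a TATA match at 31. Anpep, Polr2h and Adsl held no match, which says only that these letters are not in the window. The GC content was 43.2% in Saa3 and 44.4% in Il1b, against 72.8% in Anpep, 71.2% in Egr2, 67.6% in Polr2h, 59.2% in Adsl and 56.4% in Lcn2.

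A promoter was listed for 27025 genes, 10344 of them among the 19731. C/EBP letters occurred in 36.9% of the 27025 and in 28.9% of the 10344, NF-kB letters in 7.01% and 8.41%, AP-1 in 6.87% and 4.8%, CRE in 1.62% and 2.7%, the CArG box in 1.4% and 1.23%, ETS in 7.05% and 13.5%, the E-box in 6.05% and 8.11% and TATA in 13% and 7.53%. In the 23 matched genes higher in RAW264.7 and lower in CT-26 cells, C/EBP letters stood in 10 (43.5%) and NF-kB letters in 3. In the 73 matched genes of the reverse class, C/EBP letters stood in 18 (24.7%), ETS in 12 (16.4%) and the E-box in 8 (11%). Of 31 matched genes higher in both lines, 11 held C/EBP letters and 4 NF-kB letters, and of 20 lower in both, 3 and 2. These shares are descriptions with no test.

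Genes that rose in both lines were led by secreted proteins of the acute phase. Saa3, an inflammatory serum amyloid A protein, lay at -0.50, -0.94 and 0.87 in control and at 3.69, 3.72 and 4.16 in knockdown RAW264.7 cells. In primed tumour cells it lay at -3.42, -3.48 and -3.54 after priming by control and at -0.01, -0.02 and 0.42 after priming by knockdown cells. It rose 16.5-fold in macrophages (adjusted p = 0.000456) and 12.2-fold in tumour cells (adjusted p = 4.41e-05) with no overlap in either. The difference was 0.43 ± 0.51 with a 95% interval of -0.67 to 1.54 (adjusted p = 0.528), which spans values on either side of 0. It was -0.63 with slide as a block (adjusted p = 0.23), and without control RAW264.7 replicate 3, the highest control array, it was 0.96 and passed (adjusted p = 0.0251).

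Lcn2, lipocalin 2, which binds bacterial iron carriers, lay at 2.24, 2.66 and 2.85 in control and at 5.24, 5.40 and 5.45 in knockdown RAW264.7 cells. CT-26 levels stood at 2.04, 1.82 and 1.82 and at 4.57, 4.79 and 5.05. Groups were apart within each line, and the CT-26 arrays lay somewhat below the RAW264.7 arrays both before and after. The changes were 2.78 ± 0.21 and 2.91 ± 0.17, and the difference was -0.13 ± 0.27 (95% interval -0.71 to 0.45, adjusted p = 0.732); it was 0.05 with median centring and 0.48 with quantile normalisation. Urah, a purine degradation enzyme, rose by 3.16 and 2.36, with a difference of 0.79 that missed the threshold (adjusted p = 0.0738) and passed in 6 of the other settings.

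Ccl2, the chemokine that recruits monocytes, rose in both but further in macrophages. It lay at -1.16, -0.85 and -0.70 in control and at 5.23, 5.54 and 5.40 in knockdown RAW264.7 cells. Levels in CT-26 cells were 1.5, 1.46 and 1.19 and then 3.61, 3.51 and 4.07. Control-primed tumour cells lay above control macrophages, and the order turned over after knockdown, though the lines lay on different slides. The rise was 78.5-fold and 5.09-fold, and the difference was 3.95 ± 0.27 (95% interval 3.35 to 4.54, adjusted p = 4.06e-06). Slpi, a secreted inhibitor of leukocyte proteases, rose by 4.30 and 2.27, with a difference of 2.02 (adjusted p = 0.00566), which was 1.40 with slide as a block and missed the threshold there (adjusted p = 0.0513). Of the 13 genes that rose in both with a called difference, the macrophage rise was the larger in 10. The count of 50 fell to 31 or less when RAW264.7 control replicate 1, RAW264.7 knockdown replicates 2 or 3, control-primed CT-26 replicates 2 or 3, or knockdown-primed CT-26 replicates 2 or 3 were left out (31, 27, 23, 17, 10, 26 and 17), and was 83 without knockdown-primed replicate 1.

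The 5 genes named among those that fell in both lines had differences between -0.34 and 0.38. Cavin4, a caveola coat protein of muscle, lay at -3.75, -3.15 and -3.86 in control and at -4.52, -4.84 and -4.87 in knockdown RAW264.7 cells, and at 1.76, 1.91 and 2.34 and at 0.74, 0.42 and 0.72 in CT-26 cells. The line difference in level was large and the changes were -1.16 and -1.37, with a difference of 0.21 (95% interval -0.47 to 0.90). Sspn (sarcospan, part of the dystrophin complex), Bud13 (a splicing factor), Tcim and Mef2b (a MADS-box transcription factor) had differences of -0.10, 0.38, -0.16 and -0.34, none past the test. The count of 52 was 23, 24, 15, 17, 8, 0, 20 and 7 without RAW264.7 control replicate 1, RAW264.7 knockdown replicates 1, 2 and 3, control-primed CT-26 replicates 2 and 3, and knockdown-primed replicates 2 and 3.

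Gene lists by role show where the difference lay above and below the median of -0.448 for all genes. The lists were chosen with earlier results of these data known, and some share members, such as Il1b and Ccl2. Their counts are descriptions, and no list was tested as a set. Counts are of members well above background on all 12 arrays. Of all 19731 genes, 5.96% had a called difference above 0 and 28.8% one below 0. Of 8 acute phase and antimicrobial proteins, 4 differences were called, all above 0 (50% of the list), with a median of 1.197. The count fell in 2 fits by slide, and the median was 0.65 to 1.37 over these and 3 other scalings. The members Saa1, Saa3, Lcn2, Slpi and Cp rose in both lines; Cp (ceruloplasmin) had a difference of 1.96, while C3 (complement component 3) rose by 3.82 in macrophages with a CT-26 change of 0.48 and had a difference of 3.34. Saa1 changed by 2.15 and 2.17. The summed neutrophil marker level was higher in knockdown than in control RAW264.7 cells without overlap (8.46 to 10.39 against 1.82 to 3.65). Of these markers only Cebpe and Camp had the higher mean after knockdown. Their part in this list was not tested.

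Of 14 interleukin-1 and inflammasome genes, 3 differences were called, all above 0 (21.4% of the list, against 5.96% of all genes, median 0.427). Il1rn, the natural antagonist of interleukin-1 receptors, lay at -0.68, -0.36 and -0.16 in control and at 3.31, 3.69 and 3.85 in knockdown RAW264.7 cells, and between -4.88 and -4.54 on all 6 CT-26 arrays. Its difference was 4.01 ± 0.27 (adjusted p = 3.69e-06). Nlrp3, the inflammasome sensor, rose in both, by 1.5 and 1.02, with no called difference. Of 26 NF-kB target genes, 5 differences were called, all above 0 (19.2% of the list, against 5.96% of all genes). They were those of Il1b, Ccl2, Csf1 at 2.02, Ptgs2 at 2.10 and Birc3 at 1.62. The median of 0.234 for the NF-kB list became -0.07 with slide as a block. Of 9 chemokines, 2 differences were called, both above 0 (22.2% of the list, against 5.96% of all genes). They were those of Ccl2 and of the eosinophil attractant Ccl24 (1.14). The chemokine median of -0.218 was 0.08 with quantile normalisation.

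Interferon-stimulated genes went the other way. Of 26, 12 differences were called below 0 (46.2% of the list, against 28.8% of all genes) and 3 above (11.5%, against 5.96%). The median was -0.682. In RAW264.7 cells 12 fell and 2 rose, where 15.9% and 5.63% of all genes did. Over 3 other scalings and 2 fits by slide, 6 to 12 were called below 0. Ifi44, an interferon-induced protein of unclear function, lay at 0.69, 1.25 and 1.29 in control and at -1.74, -1.54 and -1.96 in knockdown RAW264.7 cells, and between 2.40 and 2.97 on all 6 CT-26 arrays. Its difference was -2.70 ± 0.30 (adjusted p = 0.000123). Usp18, which removes the ubiquitin-like modifier ISG15, had a difference of -2.10, and Irf7, a master regulator of type I interferon genes, of -1.33. The 3 differences above 0 were those of Ifit1 (1.67), Rsad2 (2.14) and Gbp5 (1.96). Of 19 MHC class I antigen presentation genes, 6 differences were called below 0 (31.6%, near the 28.8% of all genes) and 1 above (5.26%, near the 5.96%). The median of -0.135 was 0.04 with median centring and 0.24 with quantile normalisation, where 3 differences were above and 1 below. Called below 0 were, among others, the immunoproteasome subunit Psmb8 at -0.96 and its activator Psme2 at -1.04, for which another, dimmer probe gave 1.69. Psmb8 was -0.47 with quantile normalisation and missed the threshold there (adjusted p = 0.0631).

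Of 27 immediate early genes and MAP kinase feedback genes, 11 differences were called above 0 (40.7%) and 1 below (3.7%). Of all genes 5.96% and 28.8% were. The median of the list was 0.297. Phlda1, a growth factor response gene, rose by 3.06 in RAW264.7 cells and had a difference of 2.80; Dusp6, the phosphatase that turns off ERK, had a difference of 1.91. Egr1 followed Egr2 in RAW264.7 cells, at 2.74, with a CT-26 change of -0.38 and a difference of 3.12. Of 16 secreted growth factors, 8 differences were called, all above 0 (50% of the list, against 5.96% of all genes), with a median of 0.769. The count above 0 fell in 2 fits by slide, and the median was 0.65 to 0.94 over these and 3 other scalings. Lif, a cytokine of the interleukin-6 family, lay at -4.31, -3.74 and -4.12 in control and at 0.32, 0.18 and 0.71 in knockdown RAW264.7 cells, and at -1.05, -0.62 and -0.82 and at -0.42, -0.21 and -0.48 in CT-26 cells. Both pairs of groups were apart, but only the macrophage change passed (4.46 against 0.46, adjusted p = 0.116), and the difference was 4.01 ± 0.28 (adjusted p = 4.81e-06). Vegfc, a lymphatic growth factor, had a difference of 1.57. Of 23 p53 target genes, 7 were called above 0 (30.4%, against 5.96% of all genes) and 2 below (8.7%, against 28.8%). The median was 0.604. The stress gene Gadd45a was at 2.26 and the p53 ligase Mdm2 at 2.06. Mdm2 lay at 2.03, 2.17 and 2.70, then 3.81, 3.92 and 3.83 in RAW264.7 cells. In CT-26 cells it lay at 2.65, 2.86 and 2.90, then 2.53, 2.47 and 1.90.

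Called differences of DNA replication and mitotic genes lay below 0, as they did for 28.8% of all genes. Of 42 DNA replication genes, 22 differences were called, all below 0 (52.4% of the list, median -0.827). In CT-26 cells 11 of the 42 rose, where 3.37% of all genes did. In RAW264.7 cells 4 fell, where 15.9% of all genes did. Mcm5, a subunit of the replicative helicase, lay at 3.56, 3.75 and 3.71 in control and at 3.14, 3.0 and 2.99 in knockdown RAW264.7 cells, and at 1.86, 1.77 and 1.83 and at 2.54, 2.90 and 2.88 in CT-26 cells. It changed in opposite directions, by -0.63 and 0.96, as did the clamp loader subunit Rfc5, by -0.63 and 0.91. For both the opposite calls were lost with median centring, quantile normalisation and slide as a block; the RAW264.7 change of Mcm5 was then -0.42, -0.37 and -0.67 (adjusted p = 0.12, 0.0846 and 0.209), while its difference passed in each. Cdc6, which loads that helicase, rose in CT-26 cells by 1.35 with no call in RAW264.7 cells (-0.24), and had a difference of -1.58. The count of 22 ranged from 9 to 25 over 3 other scalings and 2 fits by slide. Of 37 mitotic genes, 14 were called, all below 0 (37.8% of the list, median -0.595; 3 with slide as a block); Cdc20, the activator of the anaphase-promoting complex, changed by -0.78 and 0.65, calls that were likewise not both kept in those 3 settings, and cyclin Ccnb2 had a difference of -1.18.

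**Figure D5:**
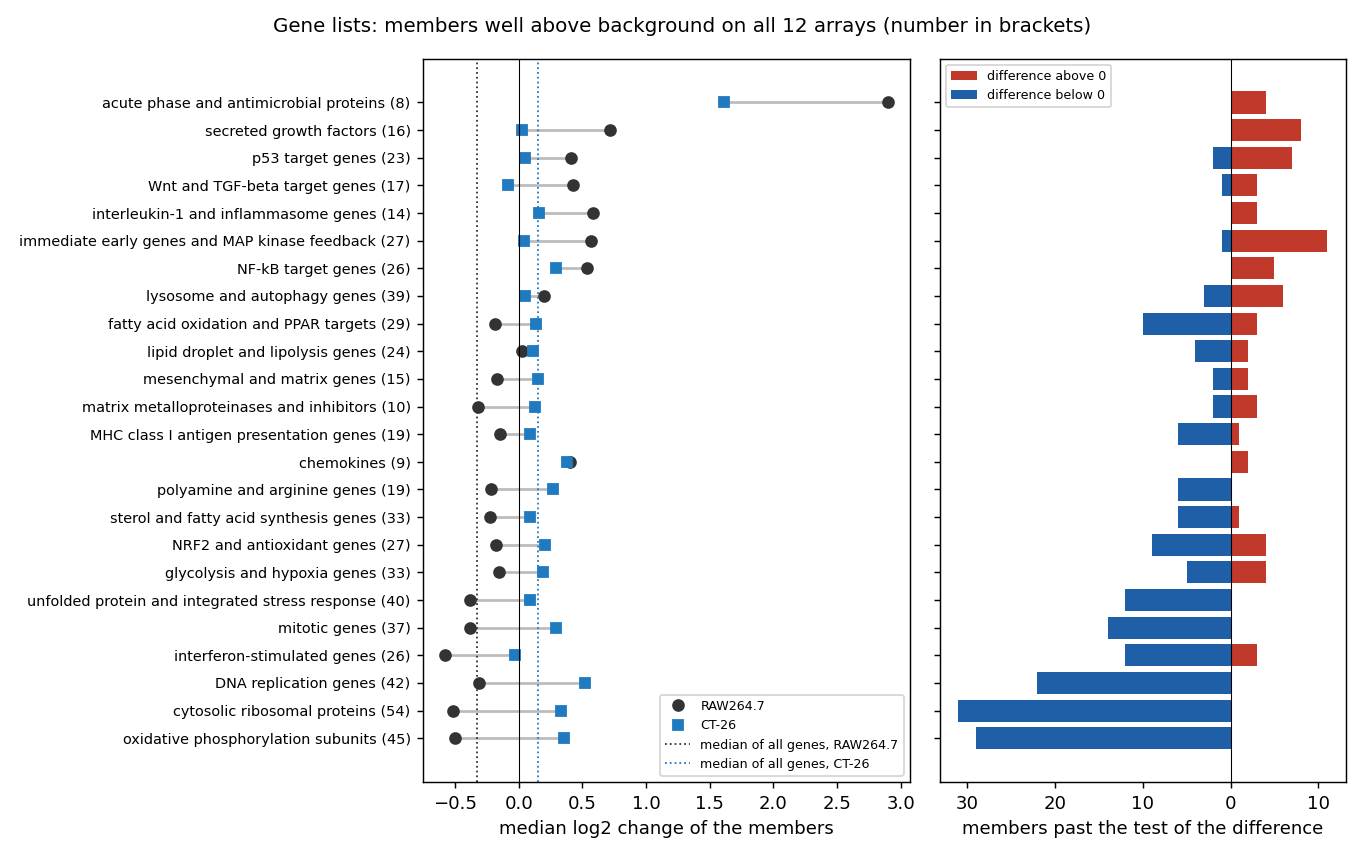
Left, median log2 change of the members of 24 gene lists in RAW264.7 (circles) and CT-26 cells (squares), with dotted lines at the medians of all 19731 genes; right, members whose difference was called above or below 0. Acute phase proteins lie highest in both lines, and oxidative phosphorylation subunits, ribosomal proteins and DNA replication genes have the most calls below 0.

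Of 45 oxidative phosphorylation subunits, 29 differences were called, all below 0 (64.4% of the list, against 28.8% of all genes). The median was -0.904, with the complex I subunit Ndufs6 at -1.37 and Ndufa4 at -1.28. Ndufa4 was -0.57 with quantile normalisation and missed the threshold there (adjusted p = 0.0502). Of 54 cytosolic ribosomal proteins, 31 were called, all below 0 (57.4% of the list, median -0.871). Rps3 was at -1.18 and Rps2 at -1.14, and their other probes gave -0.37 to -0.50. The members of both lists named here had levels above 2, where 39.7% of genes were called below 0. Both lists depended on the scaling: with quantile normalisation the calls were 4 of 45 and 1 of 54 and the medians -0.25 and -0.08, and with slide as a block 6 and 1, with medians of -0.87 and -0.77. The plot of list medians shows both lists close to each other, below the median of all genes in RAW264.7 and above it in CT-26 cells.

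Lists of lipid metabolism were mixed. Of 24 lipid droplet and lipolysis genes, 4 differences were called below 0 (16.7%, against 28.8% of all genes) and 2 above (8.33%, against 5.96%). The median was 0.113, and -0.09 to 0.29 in the other scalings and slide fits. Besides Abhd5, its partner lipase Pnpla2 had a difference of -0.96 and the monoglyceride lipase Mgll of -0.92, both below 0. Nceh1, a cholesterol ester hydrolase, was at 1.74, although its other probe gave -0.32, and Acsl4, which activates arachidonic acid, was at 1.79. Of 29 genes of fatty acid oxidation and PPAR targets, 10 were called below 0 (34.5%, against 28.8% of all genes) and 3 above (10.3%, against 5.96%). The median was 0.126. With quantile normalisation 3 were below and 5 above, and with slide as a block, where the median was -0.28, the list's calls were lost. Eci1, an isomerase of fatty acid oxidation, was at -1.15, and Etfb, an electron carrier subunit, at -1.22; Etfb was -0.47 with quantile normalisation (adjusted p = 0.0915) and -0.99 with slide as a block (adjusted p = 0.0979). Of 33 sterol and fatty acid synthesis genes, 6 were below 0 (18.2%, against 28.8% of all genes) and 1 above (3.03%, against 5.96%). The median was -0.258. With quantile normalisation 4 were below and 3 above (median 0.02), and with slide as a block the median was -0.14. Me1, a cytosolic source of NADPH, was at 1.66 and the elongase Elovl6 at -1.46. With slide as a block the Elovl6 difference was -1.14 and did not pass.

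Of 39 lysosome and autophagy genes, 6 differences were called above 0 (15.4%, against 5.96% of all genes) and 3 below (7.69%, against 28.8%). The median was 0.191. Neu1, the lysosomal sialidase, was among the few named genes whose difference came from the tumour cells. It lay at 3.93, 3.47 and 3.91 and at 4.01, 4.02 and 3.89 in RAW264.7 cells, where the groups overlapped. On CT-26 arrays it was at 0.13, 0.48 and 0.26 after priming by control and at -1.29, -1.10 and -1.87 after priming by knockdown cells, a fall of 3.29-fold. Its difference was 1.92 ± 0.30 (adjusted p = 0.00148). Npc1, the lysosomal cholesterol exporter, had changes of 1.0 and -1.17, neither past the test alone (adjusted p = 0.0628 and 0.064), and a difference of 2.17 that was (adjusted p = 0.0142).

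Of 33 glycolysis and hypoxia genes, 4 were called above 0 (12.1%, against 5.96% of all genes) and 5 below (15.2%, against 28.8%). The median was -0.329. However, all 6 calls were above 0 with quantile normalisation (median 0.23), as were those with slide as a block. The collagen prolyl hydroxylase P4ha2 was at 3.40 and the endoplasmic reticulum oxidase Ero1a at 1.73. Of 27 NRF2 and antioxidant genes, 4 were above (14.8%, against 5.96% of all genes) and 9 below (33.3%, against 28.8%). The median was -0.285. With quantile normalisation 6 were above and 1 below, with a median of 0.26, and with slide as a block 3 were above. Called above 0 were, among others, Osgin1 at 1.90 and Gstp1 at 1.27. Of 40 genes of the unfolded protein and integrated stress response, 12 were called, all below 0 (30% of the list, near the 28.8% of all genes; median -0.514). With quantile normalisation 1 was above and 2 below, with a median of 0.08, and with slide as a block 1 was below. The chaperone Hyou1 was at -1.26 and the serine enzyme Shmt2 at -1.21, which was -0.56 with quantile normalisation (adjusted p = 0.1) and -1.08 with slide as a block (adjusted p = 0.0687). Of 19 polyamine and arginine genes, 6 were called, all below 0 (31.6% of the list, near the 28.8% of all genes; median -0.246). With quantile normalisation 2 were above and 3 below, with a median of 0.05, and with slide as a block 1 was below. Spermidine synthase Srm was at -1.26 and the translation factor Eif5a at -1.17, which was -0.43 with quantile normalisation (adjusted p = 0.123) and -1.08 with slide as a block (adjusted p = 0.0502).

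Of 10 matrix metalloproteinases and inhibitors, 3 were called above 0 (30%, against 5.96% of all genes) and 2 below (20%, against 28.8%). The median was -0.078, but 0.02 to 0.10 with median centring, quantile normalisation and slide as a block. Timp1, an inhibitor of these proteases, lay at 0.23, 0.63 and 0.11 in control and at -1.84, -2.40 and -2.40 in knockdown RAW264.7 cells, and at 4.26, 4.22 and 4.36 and at 4.60, 4.81 and 5.08 in CT-26 cells. All groups within a line were apart, and the difference of -3.08 ± 0.29 was called (adjusted p = 3.94e-05), as was that of the protease Mmp19 at 1.69. Of 15 mesenchymal and matrix genes, 2 were above (13.3%, against 5.96% of all genes) and 2 below (13.3%, against 28.8%). The median was -0.059, but 0.03 to 0.60 with median centring, quantile normalisation and slide as a block. Smooth muscle actin Acta2 was at 1.97 and tropomyosin Tpm2 at -0.88, for which a second probe gave -2.68. The Tpm2 difference was -0.32 with quantile normalisation (adjusted p = 0.286) and -0.90 with slide as a block, and passed in neither. Of 17 Wnt and TGF-beta target genes, 3 were above (17.6%, against 5.96% of all genes) and 1 below (5.88%, against 28.8%). The median was 0.431. The call below 0 was that of the transcription factor Lef1 at -2.12. A second Lef1 probe gave -1.17, with a CT-26 change of -0.46 against 0.31.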

How the data were processed

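Total RNA was amplified and labelled with Cy3 per the labels' protocols and hybridised to 1-colour Agilent mouse arrays, read with Agilent Feature Extraction 10.7.3.1 per the submitters' processing notes. The deposited scanner files give the processed signal, a background-corrected intensity on a linear scale, with probe positions on mm9. As deposited by the authors, the value table holds log2 values for RAW264.7 cells and linear intensity for CT-26 cells, read from the values; 5 of its 6 CT-26 columns followed another replicate of their group, so CT-26 replicate numbers are uncertain, and it served only as an alternative. Column medians were -4.02 to -3.53 and 131.7 to 276.

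Control spots (3671 per array) and outlier spots (172 to 272) were left out; no spot was saturated. log2 signal minus the array's 75th percentile was averaged over spots of a probe. RefSeq (GRCm38.p6) named 26769 probes by accession and 4455 by symbol; 24457 kept the design's name. The brightest probe passing the filter stood for a gene. limma 3.58.1 (R 4.3.3; lmFit, eBayes, two-sided, Benjamini-Hochberg) fitted each comparison on 6 arrays, and the difference on 12; the fits were tested on simulated data. Their number limits the precision. Named genes were Abhd5, the 6 largest differences per direction, the 10 per opposite class and 5 per shared class with the largest smaller change, and 2 per list by smallest p; features without a gene name were passed over. Members and lists were chosen with earlier results of these data known. Alternatives covered scaling, background correction, dim-probe filters, probe averaging, slide, replicate number, array weights, the value table and leaving out arrays.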

Additional observations from a re-analysis of the deposited data

Results flagged for a closer look

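The genes below were singled out because the change in RAW264.7 cells and the change in CT-26 cells differed by the limma test of the difference itself; the value in brackets is that difference on the log2 scale, RAW264.7 minus CT-26. They number 77. The largest above 0 were Il1b (6.49), Gpnmb (5.29), Chchd10 (5.24), Pdpn (5.12), Csta3 (5.07) and Rbpms (4.24). Genes that rose in RAW264.7 and fell in CT-26 cells were Egr2 (3.24), Esyt3 (3.35), Myo10 (2.53), Bhlhe40 (2.57), Celf4 (2.48), Anpep (3.37), Prkab2 (2.27), Cblb (2.08), Ptpre (2.31) and Gk5 (2.07). Secreted proteins and inflammatory genes above 0 were Ccl2 (3.95), Slpi (2.02), Ccl24 (1.14), Il1rn (4.01), C3 (3.34), Cp (1.96), Lif (4.01), Vegfc (1.57) and Mmp19 (1.69). Signalling and stress genes above 0 were Phlda1 (2.80), Dusp6 (1.91), Gadd45a (2.26), Mdm2 (2.06), Osgin1 (1.90), Gstp1 (1.27), Ero1a (1.73) and P4ha2 (3.40). Lipid, lysosomal and contractile genes above 0 were Me1 (1.66), Nceh1 (1.74), Acsl4 (1.79), Neu1 (1.92) and Acta2 (1.97).

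The largest below 0 were Pxdn (-5.17), Hspb7 (-5.10), Gdpd3 (-4.61), Hoxc6 (-4.60), Igf2bp1 (-4.5) and Gprc5c (-4.03). Genes that fell in RAW264.7 and rose in CT-26 cells were Polr2h (-2.16), Nmral1 (-2.17), S100a5 (-2.21), Cd79b (-2.48), Trub1 (-1.97), Tsacc (-1.88), Ifitm1 (-2.56), M1ap (-1.85), Spef1l (-1.88), Adsl (-1.95), Mcm5 (-1.59) and Cdc20 (-1.43). Interferon, antigen presentation, protease inhibitor and Wnt genes below 0 were Ifi44 (-2.70), Usp18 (-2.10), Psmb8 (-0.96), Psme2 (-1.04), Timp1 (-3.08) and Lef1 (-2.12). Cell cycle, respiratory chain and translation genes below 0 were Ccnb2 (-1.18), Cdc6 (-1.58), Ndufs6 (-1.37), Ndufa4 (-1.28), Rps3 (-1.18), Rps2 (-1.14) and Eif5a (-1.17). Metabolic, chaperone and contractile genes below 0 were Elovl6 (-1.46), Eci1 (-1.15), Etfb (-1.22), Hyou1 (-1.26), Shmt2 (-1.21), Srm (-1.26) and Tpm2 (-0.88), besides the silenced gene Abhd5 (-1.39).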

How the results depend on the processing

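Counts below are given in the order higher in RAW264.7 and lower in CT-26, the reverse, higher in both, lower in both (33, 139, 50 and 52 as reported). With slide as a block they were 11, 6, 16 and 5, and with only the arrays of slides that hold both groups 18, 22, 21 and 12; the RAW264.7 count was then 547 and 1054, and the differences above and below 0 numbered 509 and 1122, and 728 and 2067. These 2 fits use fewer RAW264.7 controls. Median centring gave 80, 84 and 17 for the last 3 classes and 2606 RAW264.7 calls. Quantile normalisation gave 62 for the second class, 30 for the fourth and 3621 differences below 0. Normexp gave 50, 255 and 77 for the first 3 classes. Without a filter on dim probes, where more probes were tested and the calls of limma numbered 1318 in RAW264.7 and 19 in CT-26 cells, the classes held 0, 0, 7 and 0 genes. Testing only genes well above background on all arrays gave 76, 363, 96 and 93, with 1878 CT-26 calls. Array weights gave 107, 555, 141 and 141, with 2616 CT-26 calls; the 12-array fit gave 7281 RAW264.7 calls. The cause of the other shifts was not tested.

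With the replicate number as a block there were 475 CT-26 calls, and the last 3 classes held 25, 27 and 27 genes. Same-numbered samples deviated together at correlations of -0.406 to 0.189. CT-26 replicate numbers are uncertain and each group has 3 samples, so these values cannot settle whether samples were paired.

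Leaving out 1 array gave 40 to 2277 CT-26 calls, 975 to 5386 RAW264.7 calls, 773 to 1401 differences above 0, 3223 to 6400 below 0, and 3 to 68, 1 to 384, 10 to 83 and 0 to 61 genes in the 4 classes.

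Of 77 named genes with a called difference, 68 kept the call with quantile normalisation, 67 with slide as a block, 70 with slides that hold both groups and 76 with the mean of a gene's probes, where Psme2 was -0.07; the calls of Etfb, Shmt2, Eif5a, Tpm2, Psme2 and Rps2 were lost both with quantile normalisation and with slide as a block. In the other settings run on the difference all 77 did. Differences that changed sign were all uncalled in both settings. Saa3 was -0.63 in both slide fits. Lcn2 was 0.05 with median centring, 0.48 with quantile normalisation and -0.30 to 0.01 when 1 array was left out, with 0.01 without RAW264.7 control replicate 3. Sspn was 0.07 with median centring, 0.20 with quantile normalisation, 0.13 with normexp, 0.29 in both slide fits, 0.06 with array weights, and -0.30 to 0.12 when 1 array was left out, above 0 without RAW264.7 control replicate 2 and without control-primed or knockdown-primed CT-26 replicate 1. Leaving out arrays for these single genes was chosen after seeing the data. Tcim was 0.01 with median centring and 0.05 with quantile normalisation. Array brightness limits what dim probes can show.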
